A study of Mus musculus with 9 samples.

Results

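The interferon-inducible GTPases described here are 10 mouse genes of the guanylate-binding protein (GBP) and immunity-related GTPase (IRG) families: Gbp2, Gbp3, Gbp6, Gbp7, Igtp, Irgm1, Irgm2, Iigp1, Gm12250 and Tgtp2. They were taken by gene name, 10 rows of the 55487 genes in the table. They were selected on results of these same 9 libraries, the TPM values and the group differences described here, so all their differences between groups below are descriptions and carry no p-value. RNA-seq was performed on CD4+ T cells obtained by negative selection from spleens of young female wild-type C57BL/6 mice, to see how TRAIL (TNF-related apoptosis-inducing ligand) alters T cell activation. Cells of the medium group were cultured without stimulation, for a time not given in the sources used here. Stimulated cells were treated for 24 h with Abs that engage the TCR complex (anti-CD3, at 3 µg/ml) and its costimulatory receptor (anti-CD28, at 2 µg/ml). Another group received the same Abs together with TRAIL (10 µg/ml) for 24 h. Each group had 3 libraries, and no source states that they came from separate mice or cultures, so SEs and p-values measure only the spread between these libraries. TRAIL-R-deficient cells were not analysed here.

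GBPs and IRG proteins are GTPases that interferon-γ, and to differing degrees type I interferon, induces in many cell types. They are best known for gathering on the vacuoles of intracellular bacteria and parasites such as Toxoplasma. Effector IRG proteins bind and disrupt the vacuole membrane, while the regulatory IRGM proteins sit on the cell's own membranes and hold the effectors inactive there. In T cells, Irgm1 is known for its part in survival of activated cells exposed to interferon-γ.

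All 10 genes were present in all 9 libraries, and stimulated cells held the most of them. Their summed level was 630.0 to 658 TPM, a length-corrected relative abundance within each library, in medium, 2972 to 3086 TPM in stimulated cells and 471 to 511 TPM in cells stimulated with TRAIL. These sums were 0.0630 to 0.0658%, 0.297 to 0.309% and 0.0471 to 0.0511% of all transcripts. The 3 groups did not overlap in this sum, and the TRAIL-treated libraries lay below medium as well as below stimulated cells. Gbp2 alone made up 40.0% ± 1.28 (SD, n = 3) of the sum in stimulated cells against 9.39% ± 0.426 (SD, n = 3) in medium and 9.40% ± 0.600 (SD, n = 3) with TRAIL.

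**Figure D1:**
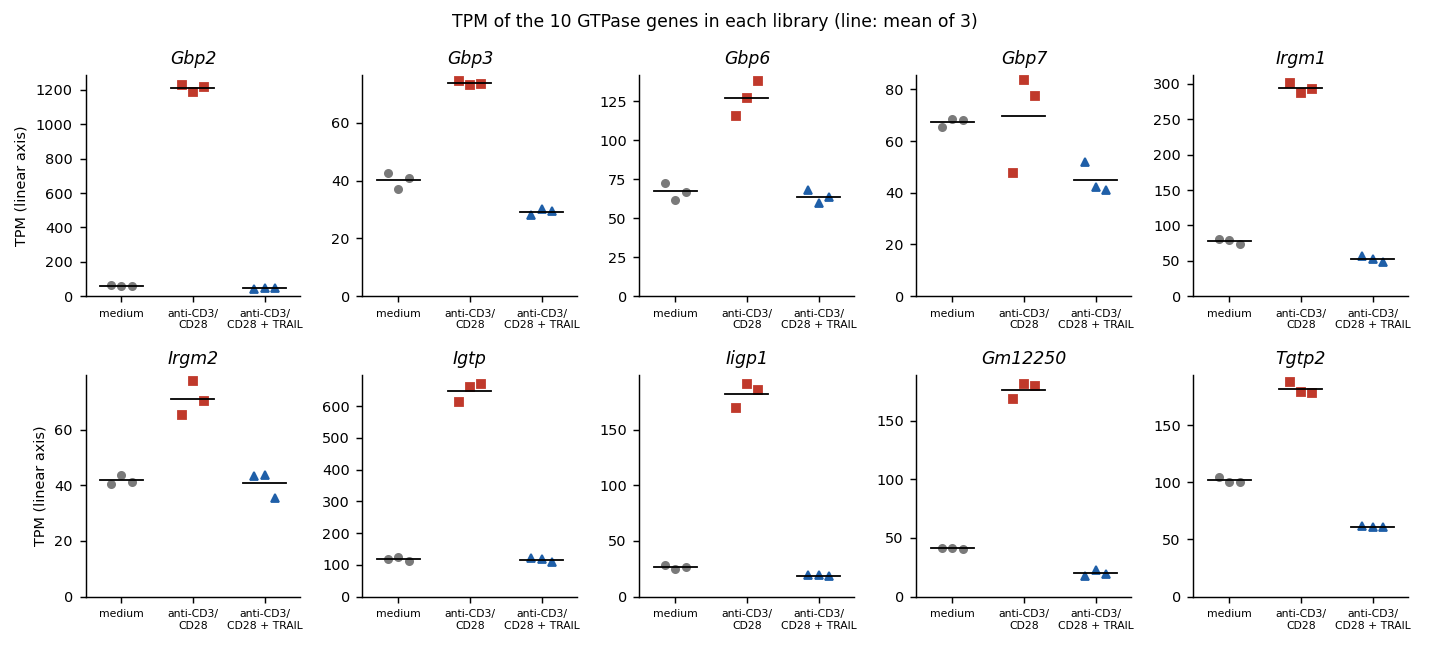
TPM (vertical axes, linear and separate for each gene) of the 10 GTPase genes in each library of the medium, anti-CD3/CD28 and anti-CD3/CD28 + TRAIL groups, with points for libraries and lines for the mean of 3. Stimulated libraries lie above both other groups for 9 of the 10 genes, and Gbp7 is the exception, with stimulated values from 47.6 to 83.6 TPM.

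The libraries held transcripts of cells other than T cells, in amounts that moved with the groups. The 6 T cell markers, Cd4 and Cd3e among them, were present throughout and summed to 1855 to 2001 TPM in medium, 1385 to 1497 TPM in stimulated cells and 1827 to 2060 TPM with TRAIL. The 10 B cell markers summed to 6129 to 6768.5 TPM, 715 to 777 TPM and 3076 to 3555 TPM, Ighm taking the largest share, and so exceeded the T cell sum in medium and with TRAIL, although the cells are labelled CD4+ T cells. The 12 macrophage and monocyte markers summed to 1691 to 1858 TPM, 48.7 to 56.6 TPM and 1397 to 1568 TPM, and all 12 were called lower in stimulated cells than in medium, higher with TRAIL than with stimulation alone, and 0 between TRAIL and medium, where limma had 3 lower and 0 higher at an unadjusted p under 0.05. The call of Spi1 for TRAIL against stimulated cells (1.05) was lost without the third stimulated (0.95), the first TRAIL (0.98) or the second TRAIL library (0.99) and with a pseudocount of 5 (0.88), and both calls of Fcgr1 (-1.47 and 1.42) with that pseudocount (-0.76 and 0.73). The 4 neutrophil markers (480.2 to 763 TPM, 26.4 to 41.7 TPM and 311 to 405 TPM), 5 dendritic cell markers (26.4 to 27.2, 7.51 to 10.1 and 16.9 to 18.6 TPM) and 5 erythroid markers (2061 to 2502, 24.8 to 39.6 and 607 to 656 TPM) were lowest in stimulated cells too. Of the dendritic cell markers, however, Zbtb46 was highest in stimulated cells (2.29 to 2.56, 5.04 to 6.60 and 1.01 to 1.32 TPM), while Xcr1 was at most 0.0141 TPM in the stimulated libraries. The 4 NK and CD8 T cell markers summed to 172 to 192, 101 to 110 and 62.9 to 66.8 TPM. That sum was lowest with TRAIL through Cd8a and Cd8b1, whereas the NK markers Ncr1 (means of 40.1, 2.64 and 8.44 TPM) and Klrb1c (24.9, 3.13 and 7.67 TPM) were lowest in stimulated cells. In bulk RNA, fewer cells of a type and less RNA per cell cannot be told apart. The summed GTPase level was highest in the libraries where myeloid and B cell markers were lowest, and the part of these cells in the medium and TRAIL levels of the GTPases was not tested.

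Fold changes below are differences of mean log2(TPM + 1) from one limma fit over 15536 genes, and a gene is called where its Benjamini-Hochberg adjusted p is under 0.05 and the log2 fold change is at least 1 in size. All gene lists used here were also chosen with earlier results of these data known, so the p-values of their genes are descriptions too. Of the 10 genes, 5 were called higher in stimulated cells than in medium, where 12.4% of all genes tested were called higher and 19.5% lower. With TRAIL, 7 of the 10 genes were called lower than with stimulation alone, against 14.3% of all genes called lower and 16.6% higher. Gm12250 alone, 1 gene of 10, was called lower with TRAIL than in medium, against 2.13% of all genes called lower and 2.49% higher. The median log2 fold change of the 10 genes was 1.40 for stimulated minus medium, -2.01 for TRAIL minus stimulated and -0.46 for TRAIL minus medium, beside -0.15, 0.01 and -0.18 over all genes tested. Libraries of the compared groups did not overlap for 9 genes in the first comparison (29.9% of all genes lay wholly above), 9 in the second (34.9% wholly below) and 7 in the third (38.2% wholly below). The comparisons share libraries, so a high stimulated level widens both the first difference and the second. TPM is relative, and median-of-ratios scaling moved the median of all genes by 0.14 and 0.16 for stimulated and for TRAIL-treated cells against medium, while quantile normalization moved it by 0.19 and 0.14. For stimulated minus medium, 1926 genes were called higher and 3033 lower as deposited, 2334 and 2591 with median-of-ratios scaling, and 2434 and 2240 with quantile normalization. For TRAIL minus medium these counts were 387 and 331, 523 and 186, and 526 and 219. Relative to the median of all genes, the 10 genes' median was 1.55, -2.02 and -0.28 as deposited, 1.57, -2.02 and -0.26 with median-of-ratios scaling, and 1.32, -1.75 and -0.26 with quantile normalization. In the third comparison the signs of Gbp6, Igtp and Irgm2 turned with median-of-ratios scaling, to 0.11, 0.16 and 0.14.

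**Figure D2:**
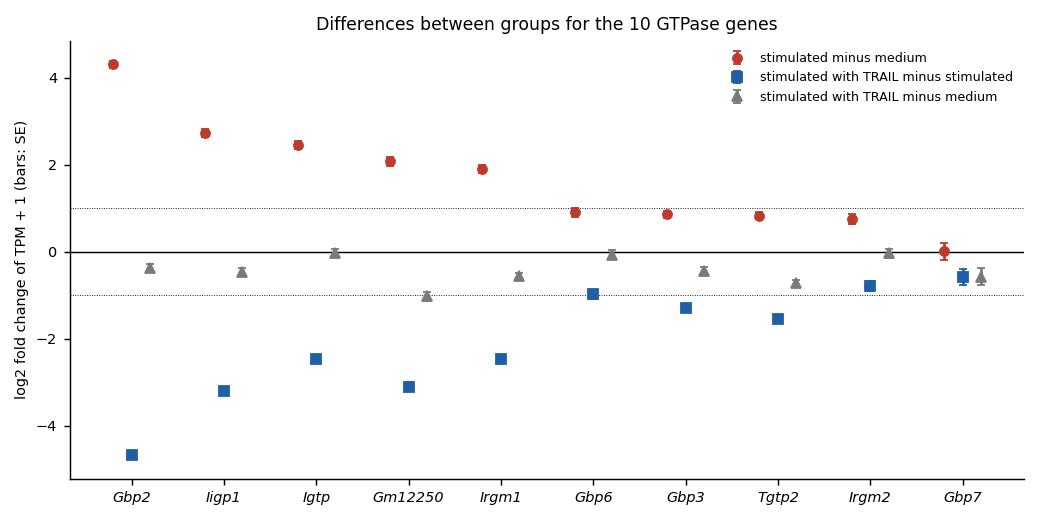
Log2 fold change of TPM + 1 (vertical axis) for each of the 10 genes (horizontal axis) in the 3 comparisons, with bars for the SE and dotted lines at a log2 fold change of 1 and -1. The genes are ordered by stimulated minus medium, from Gbp2 at 4.31 to Gbp7 at 0.01, and 9 of the 10 TRAIL minus medium values lie between the dotted lines.

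Interferons act on their target genes through short promoter elements: the interferon-stimulated response element (ISRE), which interferon regulatory factors bind, and the gamma-activated site (GAS), through which interferon-γ acts. RefSeq promoter windows (GRCm38.p6, 250 bases before to 50 after the start) were at hand for 8 of the 10 genes, not for Gbp6 and Iigp1. They were searched on both strands for an ISRE core, GAAA and GAAA with any 2 bases between them, and for a GAS, TTC and GAA with any 3 bases between them. Gbp3 has 2 windows and each other gene 1. An ISRE core was present in 8 of these 9 windows and a GAS in 5 of 9, where 3.44% and 8.30% of all 32851 windows hold them and 0.454% hold both. Of the other GBP and IRG genes, 9 had a window, and 5 of those 9 genes held an ISRE core and 3 a GAS. In the windows of the 10 genes the matches lay close before the start, the farthest beginning at position -106 in Gbp7 and the nearest at -24 in Irgm1. Stretches from 110 to 11 bases before the start are shown for 6 genes that cover the range of responses, each written 5′ to 3′ on the gene's strand with the matches in capitals.

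Gbp2, chr3:142620553-142620652, plus strand: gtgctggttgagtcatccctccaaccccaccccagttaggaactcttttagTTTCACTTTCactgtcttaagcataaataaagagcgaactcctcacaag
Irgm1, chr11:48871431-48871530, minus strand: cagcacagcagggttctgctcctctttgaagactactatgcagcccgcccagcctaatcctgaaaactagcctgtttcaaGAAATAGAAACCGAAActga
Igtp, chr11:58199446-58199545, plus strand: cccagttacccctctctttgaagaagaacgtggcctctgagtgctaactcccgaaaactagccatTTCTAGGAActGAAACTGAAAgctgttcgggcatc
Irgm2, chr11:58214867-58214966, plus strand: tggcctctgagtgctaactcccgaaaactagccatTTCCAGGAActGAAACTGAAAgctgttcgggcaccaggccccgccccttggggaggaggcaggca
Tgtp2, chr11:49064223-49064322, minus strand: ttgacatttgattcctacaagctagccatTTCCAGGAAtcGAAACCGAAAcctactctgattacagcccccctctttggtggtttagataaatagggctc
Gbp7, chr3:142530226-142530325, plus strand: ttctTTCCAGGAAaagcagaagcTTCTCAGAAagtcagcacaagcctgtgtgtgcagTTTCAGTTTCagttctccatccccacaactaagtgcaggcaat

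Igtp, Irgm2 and Tgtp2 carried the same arrangement, a GAS followed after 2 bases by an ISRE core on the same strand, as did their relatives Tgtp1 and Gm12185. In Irgm1 the capitals are 2 overlapping ISRE cores, and in Gbp2 and Gbp7 the core is read on the other strand. Igtp and Irgm2 share a run of 61 identical bases within their windows, and their stimulated minus medium log2 fold changes were 2.45 and 0.75. Gbp7, with 2 GAS matches and an ISRE core, had the smallest difference of the 10 genes, and Gbp2, with the largest, had a single ISRE core and no GAS match in this window. Gm12250 held 2 ISRE cores and a GAS, and the first of the 2 windows of Gbp3 held 2 overlapping ISRE cores while the second held neither motif. For Irgm2, Gm12250 and the second Gbp3 window the end of the window was not found in a GENCODE M21 transcript of the gene. A match is a string of letters and says nothing of binding, which was not measured.

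**Figure D3:**
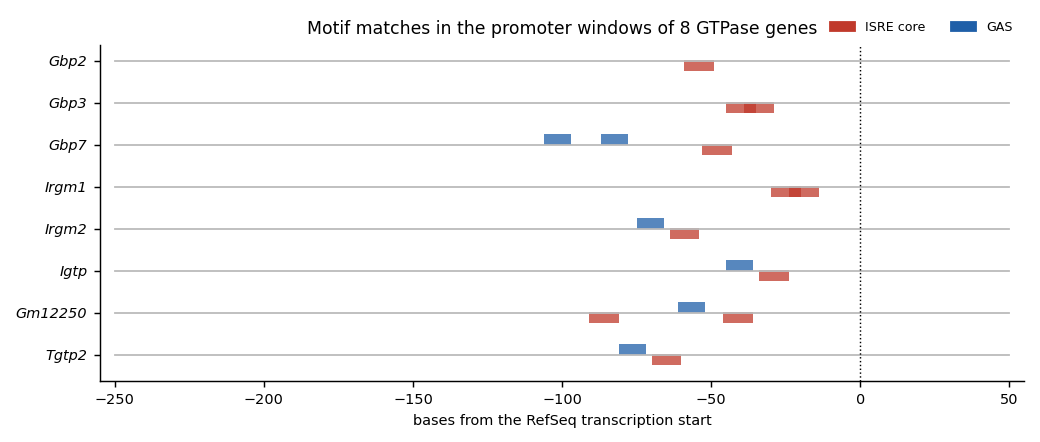
Position of ISRE core matches (lower boxes) and GAS matches (upper boxes) in the RefSeq promoter windows of 8 GTPase genes, as bases from the transcription start (horizontal axis, dotted line at the start). Each of the 8 genes has an ISRE core within 100 bases before the start, and Gbp7, Irgm2, Igtp, Gm12250 and Tgtp2 also have a GAS.

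Among the GBPs, Gbp2 (chr3:142620602-142638008, plus strand, 11 exons, protein coding) encodes a GBP that is recruited to pathogen vacuoles. Its level was 64.0, 57.0 and 59.9 TPM in medium, 1231, 1188 and 1219 TPM in stimulated cells, and 44.5, 48.8 and 45.8 TPM with TRAIL. The stimulated libraries stood apart, and every TRAIL-treated library was below every medium library. Mean TPM was 20.1-fold higher in stimulated cells than in medium, a log2 fold change of 4.31 ± 0.08 (SE), and 26.2-fold lower with TRAIL than without, -4.68 ± 0.08 (SE). None of the 100-base pieces of its annotated transcripts occurs in another gene's transcript.

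Gbp3 and Gbp7, its neighbours on chromosome 3, changed far less. Gbp3 (chr3:142560026-142573209) was at 42.8, 37.2 and 40.9 TPM in medium, 74.3, 73.1 and 73.4 TPM in stimulated cells, and 28.0, 30.1 and 29.5 TPM with TRAIL. The 3 groups did not overlap, with a log2 fold change of 0.86 ± 0.09 (SE) for stimulated minus medium, short of a call but called with median-of-ratios scaling (1.01), and -1.31 ± 0.09 (SE) for TRAIL minus stimulated. Gbp7 (chr3:142530342-142550149), whose protein takes part in oxidative defence of phagocytes, was at 65.3, 68.4 and 68.1 TPM in medium, 47.6, 83.6 and 77.3 TPM in stimulated cells, and 51.9, 42.4 and 41.0 TPM with TRAIL. It was the member with no separation between stimulated cells and either other group, the first stimulated library lying below all medium libraries and below the first TRAIL library. Its log2 fold change for stimulated minus medium was 0.01 ± 0.19 (SE), and 0.25 without that library. About 10.0% of its transcript sequence is shared, chiefly with the pseudogene Gm43802.

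Gbp6 (chr5:105270702-105293698, minus strand) lies in the second GBP cluster. It was at 72.5, 61.9 and 66.9 TPM in medium, 115, 127 and 138 TPM in stimulated cells, and 67.8, 59.6 and 63.7 TPM with TRAIL. The stimulated libraries were above all others, while medium and TRAIL overlapped. The log2 fold change was 0.91 ± 0.10 (SE) for stimulated minus medium and -0.98 ± 0.10 (SE) for TRAIL minus stimulated, both just short of a call. The first passed with median-of-ratios scaling (1.07), and the second without the first stimulated library (-1.05) or the first TRAIL library (-1.03). Of its transcript sequence 64.5% also occurs elsewhere, 59.0% in the overlapping gene Gm43302 and 36.3% in Gbp10, so its level is uncertain.

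The regulatory IRGM genes are Irgm1, Irgm2 and Igtp, the last encoding Irgm3. Irgm1 (chr11:48861968-48871683, minus strand) was at 81.1, 79.0 and 74.3 TPM in medium, 301, 288 and 293 TPM in stimulated cells, and 56.3, 52.6 and 48.7 TPM with TRAIL. No group overlapped another, and TRAIL-treated cells were the lowest. Its log2 fold change was 1.90 ± 0.09 (SE) for stimulated minus medium, -2.46 ± 0.09 (SE) for TRAIL minus stimulated and -0.57 ± 0.09 (SE) for TRAIL minus medium.

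Igtp (chr11:58199556-58207591, plus strand) held the highest level of the 10 genes in medium and with TRAIL. It was at 117, 125 and 111 TPM in medium, 612, 661 and 670.3 TPM in stimulated cells, and 121, 119 and 108 TPM with TRAIL. Medium and TRAIL overlapped throughout, and stimulated cells were 5.5-fold above medium, a log2 fold change of 2.45 ± 0.09 (SE), and with TRAIL the difference was -2.47 ± 0.09 (SE) from stimulated cells. Irgm2 (chr11:58199618-58222782, plus strand), whose annotated locus overlaps Igtp on the same strand over 162 exonic bases, followed the same order at a smaller scale. It was at 40.5, 43.7 and 41.1 TPM in medium, 65.3, 77.6 and 70.1 TPM in stimulated cells, and 43.2, 43.6 and 35.5 TPM with TRAIL. Its log2 fold changes of 0.75 ± 0.11 (SE) and -0.79 ± 0.11 (SE) were short of a call. The pair share 5.16% of the transcript sequence of Igtp and 3.01% of that of Irgm2.

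Of the effector IRG genes, Iigp1 (chr18:60376027-60392634, plus strand), which encodes Irga6, the best studied vacuole-binding IRG protein, was the lowest of the 10 genes in medium. It was at 28.3, 25.1 and 26.8 TPM in medium, 169.8, 191 and 186 TPM in stimulated cells, and 19.0, 19.2 and 18.5 TPM with TRAIL. The groups did not overlap, with a 6.82-fold higher mean in stimulated cells than in medium (log2 fold change 2.73 ± 0.09, SE) and a 9.64-fold lower mean with TRAIL than in stimulated cells (-3.20 ± 0.09, SE). Gm12250 (chr11:58187739-58189012, plus strand) encodes Irgb10, which attacks bacterial membranes, although GENCODE M21 lists it as a processed pseudogene of 1 exon. It was at 41.1, 41.7 and 40.6 TPM in medium, 169, 181 and 179.5 TPM in stimulated cells, and 17.4, 22.9 and 19.1 TPM with TRAIL.

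Gm12250 was the member that TRAIL-treated cells held lowest relative to medium, with a log2 fold change of -1.03 ± 0.11 (SE) and no overlap. That call was lost without the first TRAIL library (-0.94), and also under median-of-ratios scaling (-0.85) and quantile normalization (-0.89). Its log2 fold change was 2.07 ± 0.11 (SE) for stimulated minus medium and -3.10 ± 0.11 (SE) for TRAIL minus stimulated. Tgtp2 (chr11:49057194-49064206, minus strand), which encodes Irgb6, an early arrival at the parasite vacuole, was at 105, 100.4 and 100.4 TPM in medium, 188, 179 and 179 TPM in stimulated cells, and 61.7, 61.1 and 61.2 TPM with TRAIL. The groups did not overlap, and the distance to TRAIL (-1.55 ± 0.08, SE) was wider than that to medium (0.83 ± 0.08, SE). Of its transcript sequence 76.8% also occurs in Tgtp1, so the division of reads between the pair is uncertain.

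The order of the genes by level differed between groups. In stimulated cells it ran Gbp2, Igtp, Irgm1, then Iigp1, Tgtp2 and Gm12250 with overlapping ranges and means of 182, 182 and 176 TPM, then Gbp6, then Gbp3, Irgm2 and Gbp7 with overlapping ranges and means of 73.6, 71.0 and 69.5 TPM. In medium, Igtp (mean 118 TPM), Tgtp2 (102 TPM) and Irgm1 (78.1 TPM) led, and Gbp2 (60.3 TPM) was the sixth, overlapping Gbp6 above it. With TRAIL, Igtp (116 TPM) led again, and Gm12250 (19.8 TPM) and Iigp1 (18.9 TPM) were the lowest and overlapped each other. By family, the 6 IRG genes had a median log2 fold change of 1.99 for stimulated minus medium and -2.47 for TRAIL minus stimulated, and the 4 GBP genes 0.88 and -1.14, although Gbp2 had the widest differences of all.

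The GBP and IRG genes that were not among the 10 fell into different patterns. Of 18 such relatives, 17 could be tested. Of these, 7 were called higher and 4 lower in stimulated cells than in medium, where 12.4% and 19.5% of all genes tested were. With TRAIL, 7 were called lower and 4 higher than with stimulation alone, where 14.3% and 16.6% of all genes were. Between TRAIL and medium limma called 0, with 8 lower and 0 higher at an unadjusted p under 0.05 and 5 at an adjusted p under 0.05, and Ifi47 was called (-1.01) without the second medium library. Gbp5, which promotes inflammasome assembly, was at 29.5, 30.5 and 29.7 TPM in medium, 270.2, 338 and 348 TPM in stimulated cells, and 20.9, 18.7 and 17.7 TPM with TRAIL, log2 fold changes of 3.36 ± 0.11 (SE) and -3.98 ± 0.11 (SE). Tgtp1 went from a mean of 82.7 TPM in medium to 255 TPM in stimulated cells and 50.8 TPM with TRAIL, and Gbp10 from 20.8 to 84.1 and 20.3 TPM, both subject to the shared sequence named above. Ifi47, which encodes Irgd, stood at 139, 303 and 72.1 TPM, and Gbp4 at 143, 213 and 101 TPM. The call of Ifi47 in stimulated cells against medium (1.10) was lost without the first stimulated library (0.95) and with quantile normalization (0.97). That of Gbp4 with TRAIL (-1.06) was lost without the second stimulated library (-0.9990) and with quantile normalization (-0.83).

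Other relatives ran the opposite way. The tandem IRG genes 9930111J21Rik1 and 9930111J21Rik2, which share 69.4% of the transcript sequence of the first, stood at 129 and 185 TPM in medium, 7.46 and 10.9 TPM in stimulated cells, and 96.5 and 111 TPM with TRAIL. Their log2 fold changes for stimulated minus medium were -4.08 ± 0.33 (SE) and -4.07 ± 0.27 (SE), the reverse of their neighbours Tgtp1 and Tgtp2. Gm5431 (12.6, 1.78 and 8.95 TPM) and the testis-associated gene Irgc1 (2.01, 0.171 and 1.39 TPM) were also called lower in stimulated cells. With TRAIL, Irgc1 was called higher than in stimulated cells (1.01), but not without the third stimulated (0.97) or the second TRAIL library (0.83). Its calls against medium (-1.33) and with TRAIL were both lost with quantile normalization (-0.80 and 0.56) and with a pseudocount of 5 (-0.43 and 0.30). These 4 genes were low where the summed B cell and macrophage markers were low, and the part of those cells in their levels was not tested. Gbp8 (72.5, 64.0 and 67.9 TPM) and Gbp9 (147, 76.8 and 111 TPM) were not called, nor were Gbp2b, Irgq and, in the first comparison, Gbp4. For stimulated minus medium, Gbp9 was called without the second stimulated library (-1.06) and with quantile normalization (-1.02). Irgq was called without the first medium (-1.05), the second stimulated (-1.10) or the third stimulated library (-1.02) and with a pseudocount of 0.1 (-1.05), as was Gbp2b with that pseudocount (-1.64). Gbp11, Gm12185 and the chromosome 18 genes Gm4951 and Gm4841 were low, with no group mean above 12.8 TPM, and all but Gm4841 were called higher in stimulated cells than in medium. With a pseudocount of 5 the calls of Gbp11 (1.14), Gm12185 (1.32) and Gm4951 (1.55) were lost (0.79, 0.79 and 0.84). Gm4841 was called with a pseudocount of 0.1 (2.06) and with quantile normalization (1.26). With TRAIL, Gm12185 (-1.76) and Gm4951 (-1.71) were called lower than in stimulated cells, but not with a pseudocount of 5 (-0.99 and -0.91). In that comparison Gm4841 was called with a pseudocount of 0.1 (-2.12) and quantile normalization (-1.30), and Gbp2b with that pseudocount (1.30). Gbp11 was also called lower with TRAIL without the first stimulated library (-1.08), with a pseudocount of 0.1 (-1.06) and with quantile normalization (-1.03). F830016B08Rik was too low to test.

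**Figure D4:**
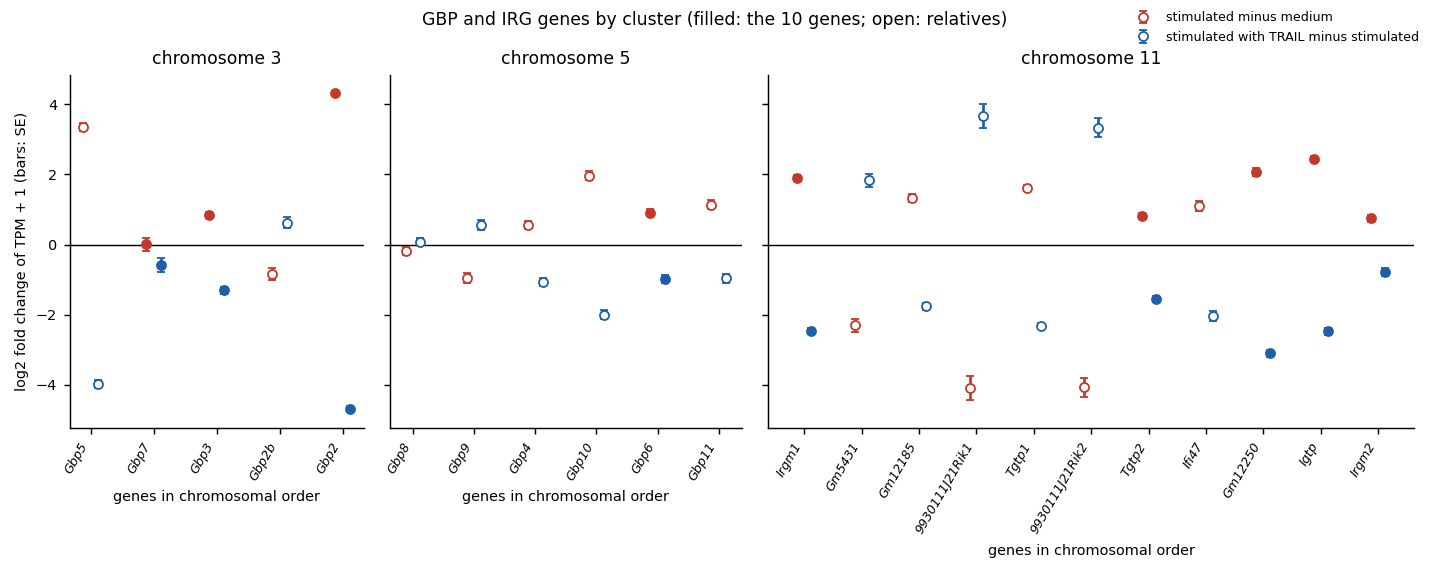
Log2 fold change of TPM + 1 (vertical axis, bars SE) of GBP and IRG genes in chromosomal order (horizontal axis) on chromosomes 3, 5 and 11, for stimulated minus medium and for stimulated with TRAIL minus stimulated. Filled points are genes of the 10 and open points relatives: 9930111J21Rik1, 9930111J21Rik2 and Gm5431 lie on the opposite side of 0 from the IRG genes around them.

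Of other large GTPases, a list of Mx, very large interferon-inducible and atlastin genes, some ran the other way. Of 9 genes tested, 4 were called lower and 0 higher in stimulated cells than in medium, where 19.5% and 12.4% of all genes tested were. Those 4 were called higher with TRAIL than with stimulation alone, where 16.6% of all genes were: Mx1 (17.2, 4.56 and 10.6 TPM in medium, stimulated and TRAIL), Mx2 (10.7, 3.69 and 9.47 TPM), Gm8995 (501, 79.9 and 404 TPM) and Gm1966 (173, 36.7 and 112 TPM). Mx1 and Mx2 respond chiefly to type I and III interferon. The call of Mx1 with TRAIL (1.08) was lost without the third stimulated library (0.99), with quantile normalization (0.96) and with a pseudocount of 5 (0.72). For Mx2 the stimulated minus medium call (-1.33) was lost with quantile normalization (-0.99) and a pseudocount of 5 (-0.86), and the TRAIL call (1.18) with the latter (0.74). Gm8995 and Gm1966 belong with Gvin1 and Gm4070 to the very large GTPases, whose 4 genes summed to 867 to 967 TPM in medium, 168 to 301 TPM in stimulated cells and 599.7 to 707 TPM with TRAIL. This order was again that of the summed B cell and macrophage markers. Gvin1, Gm4070, and the atlastins Atl1, Atl2 and Atl3, which shape the endoplasmic reticulum, were not called. Gvin1 was called lower in stimulated cells than in medium without the second medium (-1.01), the second stimulated (-1.11) or the third stimulated library (-1.04), and Gm4070 without the second (-1.09) or the third stimulated library (-1.01). Of the transcript sequence of Gvin1, 96.7% also occurs in Gm4070, so the division of reads between them is uncertain, while 3.00% of that of Gm8995 and 1.06% of that of Gm1966 occurs in another gene. Beside the 0 called higher by limma, 1 gene was higher at an unadjusted p under 0.05, Atl3, with a log2 fold change of 0.86 ± 0.12 (SE, limma adjusted p = 0.00013), and it was called with median-of-ratios scaling (1.02).

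Of 23 genes of interferon signalling, 22 could be tested. In stimulated cells 6 were called higher and 2 lower than in medium, where 12.4% and 19.5% of all genes tested were. With TRAIL, 5 were called higher (Ifngr1, Ifngr2, Ifnar1, Jak1 and Ciita) and 9 lower than with stimulation alone, where 16.6% and 14.3% of all genes were. Ifng, the ligand, was at 10.2, 7.71 and 9.66 TPM in medium, 249, 210.4 and 188 TPM in stimulated cells, and 33.2, 39.5 and 51.3 TPM with TRAIL. It fell with TRAIL by 2.37 ± 0.17 (SE) on the log2 scale (limma adjusted p = 8.3e-07) and stayed above medium by 2.04 ± 0.17 (SE, limma adjusted p = 2.9e-05). Ifnb1, the gene of interferon-β, was at most 0.271 TPM in any library. The receptor genes moved the other way: Ifngr1 averaged 133 TPM in stimulated cells and 297 TPM with TRAIL (log2 fold change 1.15 ± 0.09, SE), and Ifngr2 36.0 and 90.8 TPM (1.31 ± 0.08, SE), with no overlap between libraries.

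Downstream, the receptor-bound kinases split. Jak1 averaged 507 TPM in medium, 216 TPM in stimulated cells and 519 TPM with TRAIL, and Jak2 92.9, 235 and 85.5 TPM. Irf1, a transcription factor that induces GBP genes, averaged 231 TPM in medium, 455 TPM in stimulated cells and 436 TPM with TRAIL, a TRAIL minus stimulated log2 fold change of -0.07 ± 0.12 (SE, limma adjusted p = 0.65) with overlapping libraries. Irf8, which also binds ISREs, fell from 358 to 86.5 TPM with TRAIL. The feedback inhibitor Socs1 was at 4.93, 6.79 and 5.80 TPM in medium, 147, 117 and 105 TPM in stimulated cells, and 10.8, 13.6 and 12.1 TPM with TRAIL, and Socs3 fell from 308 to 95.4 TPM. Ciita, the regulator of MHC class II genes, ran opposite, at 67.6, 4.74 and 29.2 TPM, in the order of the summed B cell markers.

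**Figure D5:**
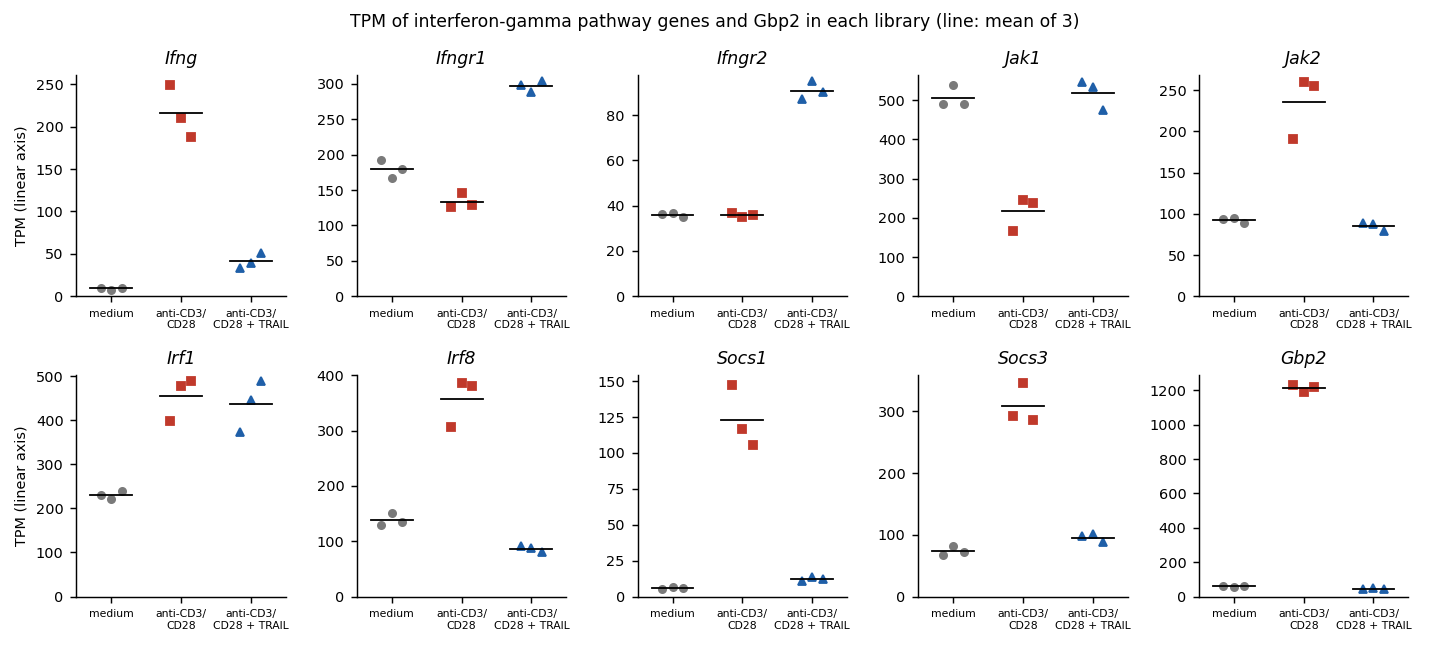
TPM (vertical axes, linear and separate for each gene) of 9 interferon-γ pathway genes and of Gbp2 in each library of the 3 groups, with points for libraries and lines for the mean of 3. Ifng, Jak2, Irf8, Socs1 and Socs3 peak in stimulated cells as Gbp2 does, Ifngr1 and Ifngr2 are highest with TRAIL, and Irf1 stays at 372 to 489 TPM with TRAIL.

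Of 34 other interferon-stimulated genes, 9 were called higher and 7 lower in stimulated cells than in medium, where 12.4% and 19.5% of all genes tested were. With TRAIL, 16 were called lower and 5 higher than with stimulation alone, where 14.3% and 16.6% of all genes were. The genes that peaked in stimulated cells included Wars, a tryptophanyl-tRNA synthetase (40.5, 177 and 27.0 TPM in medium, stimulated and TRAIL), the protease inhibitor Serpina3g (79.3, 197 and 44.3 TPM), the nucleic acid sensor Zbp1 (107, 226 and 78.2 TPM), the tetherin gene Bst2 (65.3, 172 and 61.7 TPM) and the immunoproteasome subunit Psmb8 (238, 450.4 and 155 TPM). Nos2, the inducible nitric oxide synthase, was at 14.2, 21.6 and 23.8 TPM in the stimulated libraries and listed at 0.0001 TPM, the lowest common value of the table, in all 3 medium libraries, and it was listed at 0.106, 0.0001 and 0.0001 TPM with TRAIL. Some genes of the list ran the opposite way, among them the RNA sensor gene Ddx58 (164, 34.6 and 121 TPM) and Cmpk2 (20.1, 3.01 and 10.5 TPM). With Ifit2, Rtp4 and Ifih1 they were the 5 called higher with TRAIL, Cmpk2 (1.52) not with a pseudocount of 5 (0.95). These 5 genes followed the order of the summed B cell and macrophage markers, and the part of those cells in their levels was not tested. Of the 34 genes, 1 (Cxcl10) was called higher with TRAIL than in medium and 0 lower by limma, with 26 lower at an unadjusted p under 0.05.

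A list of 25 genes was taken for partners of these GTPases, which lipidate them, load them onto membranes or act beside them in inflammasomes. In stimulated cells 2 were called higher (Gabarapl1 and Pim1) and 3 lower (Casp1, Aim2 and Pycard) than in medium, where 12.4% and 19.5% of all genes tested were. With TRAIL, 5 were called higher and 2 lower than with stimulation alone, where 16.6% and 14.3% of all genes were. Between TRAIL and medium 2 were called higher and 0 lower, where 2.49% and 2.13% of all genes were. The call of Pycard (-1.03) was lost without the third medium (-0.99) or the second stimulated library (-0.97), with median-of-ratios scaling (-0.88), quantile normalization (-0.83) and a pseudocount of 5 (-0.86). The ATG8 conjugation system positions IRG and GBP proteins on vacuoles. With TRAIL, 3 of its 10 genes on the list were called higher and 0 lower by limma, beside 16.6% and 14.3% of all genes tested: Map1lc3a (4.59, 3.79 and 14.3 TPM in medium, stimulated and TRAIL), Map1lc3b (67.7, 37.7 and 96.6 TPM) and Atg12 (36.5, 19.4 and 48.2 TPM). At an unadjusted p under 0.05, 4 of the 10 were higher and 1 lower, Gabarapl1, with a log2 fold change of -0.71 ± 0.12 (SE, limma adjusted p = 0.00032). The sensor genes Aim2 (66.4, 22.5 and 58.0 TPM) and Nlrp3 (4.65, 2.06 and 9.10 TPM) were also called higher with TRAIL, Nlrp3 (1.73) not with a pseudocount of 5 (0.9986). All 5 were lowest in stimulated cells, as the summed B cell and macrophage markers were. Unlike those sums, which were lower with TRAIL than in medium, all but Aim2 had a higher mean with TRAIL than in medium. The part of those cells in their levels was not tested. Casp4, which encodes caspase-11, fell with TRAIL (37.8 TPM in stimulated cells and 16.3 TPM with TRAIL), as did Arhgdia (672 and 298 TPM). The lipid-modifying enzyme genes Nmt1 (55.8 and 29.0 TPM) and Icmt (21.5 and 11.9 TPM) were lower without a call.

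Among the 9588 genes averaging 10 TPM or more, those whose log2(TPM + 1) followed the mean of the 10 genes most closely over the 9 libraries were Esf1, Phf10, Ddx1, Ruvbl2, Nop16, Pdcd1lg2, Psmd7, Gbp5, Fam98b and Pes1, with Pearson's r from 0.998 to 0.999. With 3 groups that differ widely, such values rest mostly on the group means. Gbp5 was the only GBP or IRG gene among them, so the pattern was not particular to these GTPases. Within the 10 genes, r with the mean of the other 9 was 0.949 to 0.997 except for Gbp7, at 0.513.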

How the data were processed

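RNA was extracted with TRIzol, and mRNA libraries (Agilent SureSelect XT HS2) were sequenced as paired ends. The submitters' processing notes name Trimmomatic 0.36, HISAT2 2.1.0, SAMtools 1.2, StringTie 2.1.2 and DESeq2. The authors deposited TPM for 55487 genes in 1 table. The notes name GRCh38 and the methods GRCm38, and 99.3% of the 55227 genes found in GENCODE M21 had its GRCm38 locus. TPM keeps no depth, so counting error is unknown. Values at 0.0001 TPM or less can be failed estimates, since 16 genes whose median reached 10 TPM had one. Whether reads were counted by strand is not given in the sources used here. Within groups, libraries correlated across genes at r of 0.983 to 0.993, and 13691 to 14909 genes per library reached 1 TPM.

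Groups came from the sample labels. The fit used limma 3.58.1 under R 4.3.3, by lmFit and then eBayes with its trend option, on log2(TPM + 1) of all 9 libraries. It took the 15536 genes that reached 1 TPM in 3 or more libraries, and p-values were adjusted over all of them by Benjamini-Hochberg. The pseudocount makes fold changes of low genes too small. The script was tested on simulated data. Shared sequence was the share of 100-base pieces of a gene's GENCODE M21 transcripts that occur in another gene's transcripts. Promoter windows were from RefSeq, and protein sequences were not analysed here. Python 3.11.15 with pandas 2.3.3, numpy 2.4.6 and matplotlib 3.10.9 served for tables and plots.

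The 10 genes and all lists were chosen with earlier results of these data known. The text names every GBP, IRG and other large GTPase gene tested. Of the signalling, interferon-stimulated and partner lists it names up to 8 genes each with the largest TRAIL minus stimulated log2 fold change and a group mean of 10 TPM or more, besides Ifng, Ifngr1, Ifngr2, Jak1, Jak2 and Irf1. The values of 1 gene of the signalling list, which is kept in its counts, are not reported here. It also names the 10 genes most like the mean of the GTPases. Other genes of those lists (Ifnar1, Ifnb1, Ifit2, Rtp4, Ifih1, Cxcl10, Gabarapl1, Pim1, Casp1, Pycard and Nlrp3), single cell type markers and overlapping genes were named after their values were seen. Alternatives varied the pseudocount, filter, scaling, variance trend, libraries, replicate block and threshold.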

Additional observations from a re-analysis of the deposited data

How the results depend on the processing

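Under the 19 alternatives, 0 calls of the 10 GTPases and 0 of the other listed genes changed direction. For the other listed genes, 8347 values kept their status as called or not called, 211 calls were gained and 82 lost. Of the calls gained, 146 came with no fold change threshold, where the fold changes themselves did not move. With a pseudocount of 5, called genes came to 2946, 2883 and 332 in the comparisons of stimulated with medium, TRAIL with stimulated and TRAIL with medium, against 4959, 4800 and 718, the median of the 10 GTPases was 1.36, -1.94 and -0.40, 0 of them were called between TRAIL and medium, and 7 relatives in place of 11 were called between stimulated and medium. With a pseudocount of 0.1, 1167 genes were called between TRAIL and medium. With no fold change threshold, 10678, 10420 and 5063 genes were called, 9 GTPases between stimulated and medium, and 7 GTPases and 5 relatives between TRAIL and medium. Median-of-ratios scaling gave the GTPases a median of 1.56 for stimulated minus medium and -0.28 for TRAIL minus medium, and quantile normalization 1.36, -1.80 and -0.30 in the 3 comparisons, both with 0 GTPases called between TRAIL and medium. Leaving out each library in turn gave medians of 1.38 to 1.45 for stimulated minus medium and -0.51 to -0.42 for TRAIL minus medium, and 0 to 1 GTPases and 0 to 1 relatives called in the latter. For single GTPases under the 19 alternatives, 184, 185 and 180 values in the 3 comparisons kept their status. Newly called were 6, 5 and 6, and 4 of the last comparison, all for Gm12250, were no longer called. All 6 new calls of that comparison came with no fold change threshold. The sign of Gbp7 for stimulated minus medium, which was not called, turned in 3 alternatives, and for TRAIL minus medium, also without a call, those of Igtp turned in 4, Irgm2 in 3 and Gbp6 in 2. Same-numbered libraries did not deviate together in all pairs (r from -0.306 to 0.295), so the numbers were not taken to pair them. With the replicate block, 4960, 4802 and 714 genes were called. TPM without counts leaves the precision of low genes unknown, and group means rest on 3 libraries each.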
